A study of Homo sapiens with 6 samples.

Results

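The 10 genes described here encode Notch receptors, ligands and targets measured in human embryonic stem cells. They are the receptors NOTCH1, NOTCH2 and NOTCH3, the ligands DLL1, DLL3 and JAG1, the receptor-modifying glycosyltransferase LFNG, and the transcription factors HES1, HES6 and HEY1. They were chosen by name, and all 10 matched 1 Ensembl gene ID each among the 60499 in the deposited count table. The cells were H1, an established human embryonic stem cell line, kept for 4 days in NutriStem, a stem cell medium, on 1 of 2 coatings. The first group grew on recombinant laminin-521 alone (LN521) and the second on laminin-521 together with laminin-221 (LN521+LN221), with 3 wells in each. Laminins are proteins of the basement membrane, the sheet of matrix under epithelia and around muscle cells. The wells differed in coating only, as far as the labels say, and all came from 1 cell line, so the p-values below measure the spread between wells.

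Notch receptors are single-pass membrane proteins that read contact between neighbouring cells. A ligand of the Delta-like (DLL) or Jagged (JAG) family on one cell pulls on the receptor of the next, which is then cut by an ADAM protease and by gamma-secretase, and the freed intracellular part enters the nucleus. There it joins the DNA-binding protein RBPJ and a Mastermind (MAML) co-activator and switches on target genes, among them repressors of the HES and HEY families. In pluripotent cells the pathway is known mainly for its part in the choice of germ layer and in early neural commitment once differentiation begins.

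Total counts per library were between 20606450 and 26836686, and each library held 13158 to 17856 counts in the 10 genes. Of the 8 pluripotency markers checked, all were tested, and their summed level ran from 2492 to 2816 TPM (values per transcript length that sum to 1 fixed total in each library) on LN521 and from 2412 to 2596 TPM on LN521+LN221, with POU5F1, NANOG and TDGF1 lower and LIN28A higher at an adjusted p-value under 0.05. Of 6 presomitic mesoderm markers, 3 had at most 10 counts in every library, MSGN1 among them with 0, and the sum stayed between 2.63 and 3.43 TPM. Of 8 neural progenitor markers, 5 had at most 10 counts in every library, SOX1 and the proneural genes among them, while NES, which stem cells also express, was abundant. Of 6 endoderm markers 5 had at most 10 counts in every library, and their sum was at most 1.45 TPM. Of 5 fibroblast markers, LUM had 0 counts in every library, and the sum, nearly all of it from collagen genes, was 76.8 to 96.8 TPM. Of the 5 neural crest markers 1, FOXD3, which pluripotent cells also express, was lower on LN521+LN221, and their sum was 29.8 to 40.0 TPM. No marker of the other 4 lists passed. The part of these lists in the results below was not tested. LN521 replicate 1 stood apart from the other libraries on the second principal component, and LN521 replicate 2 had the largest share of TPM in 7SL RNA (37.3%, against 30.1% to 33.9% in the others).

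In the main test none of the 10 genes passed an adjusted p-value of 0.05 between the coatings (edgeR quasi-likelihood test, Benjamini-Hochberg over 17608 genes), where 2.53% of all genes tested did. All 10 had enough counts to be tested. DESeq2 and limma on TPM also called 0 of the members they tested. An unadjusted edgeR p-value under 0.05 was reached by 4 of the 10 (LFNG higher, NOTCH3, DLL3 and HES6 lower on LN521+LN221), against 14.5% of all genes. Expression in CPM (counts scaled by library size) did not overlap between the coatings for 5 of the 10, against 19.9% of all genes. In 2 of them, HES1 and LFNG, LN521+LN221 was higher (10.2% of all genes), and in NOTCH3, DLL3 and HES6 it was lower (9.68% of all genes). The median log2 fold change of the 10 genes was 0.03, with a range from -0.36 to 0.28, and the median over all genes tested was -0.0011. Fold changes here are LN521+LN221 relative to LN521. In bulk RNA, fewer cells expressing a gene and less RNA per cell cannot be told apart.

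**Figure D1:**
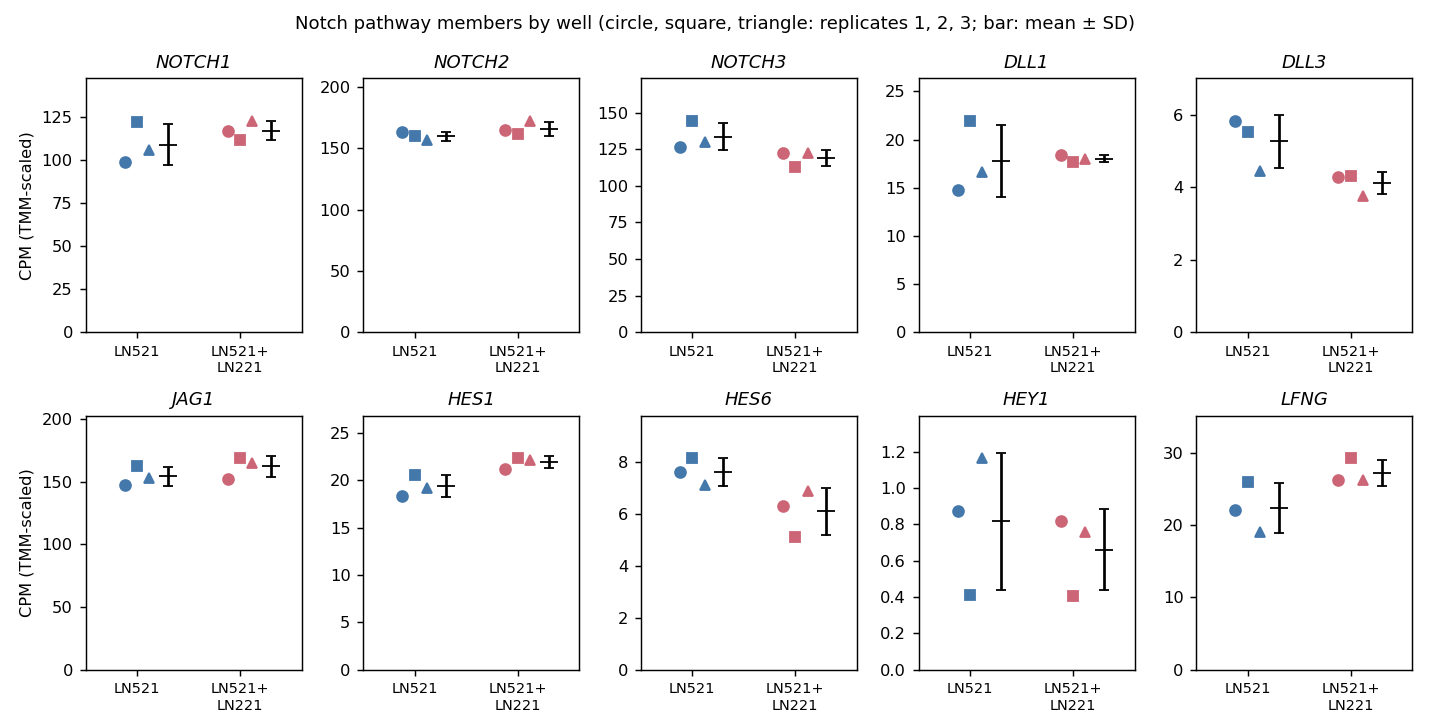
Expression of the 10 genes in each well, in CPM on a linear axis that starts at 0. Points are wells (circle, square and triangle for replicates 1, 2 and 3), and the black mark is the mean ± SD of 3 wells. The coatings do not overlap for NOTCH3, DLL3, HES1, HES6 and LFNG, and they overlap for the other 5 genes.

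The receptor NOTCH3 (ENSG00000074181, chr19:15159038-15200981, minus strand of GRCh38) was 127, 144 and 130 CPM in the 3 LN521 wells and 123, 113 and 122 CPM in the 3 LN521+LN221 wells. Every LN521 well was above every LN521+LN221 well, but the nearest pair lay within 5 CPM of each other. On the log2 scale the fold change was -0.16 ± 0.06 (SE; edgeR adjusted p = 0.209), with a 95% interval from -0.30 to -0.03. Without LN521 replicate 1 it was -0.20 and passed the threshold (edgeR adjusted p = 0.0352, where all the settings run spanned 0.0352 to 0.687), while without LN521 replicate 2 it was -0.10 (edgeR adjusted p = 0.401) and with a correction for GC content it was -0.10 (edgeR adjusted p = 0.193).

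NOTCH1 (ENSG00000148400, chr9:136494433-136545786, minus strand), the receptor best known from T cell development and leukaemia, was 98.8, 122 and 106 CPM on LN521 and 117, 112 and 123 CPM on LN521+LN221. The wells overlapped, since LN521 replicate 2 was above LN521+LN221 replicates 1 and 2 and just below replicate 3. Its log2 fold change was 0.10 ± 0.07 (SE; edgeR adjusted p = 0.547). After the GC correction it was 0.17 and passed the threshold (edgeR adjusted p = 0.0173, against 0.0173 to 0.886 over the settings run). It was 0.04 without LN521 replicate 1 (edgeR adjusted p = 0.771), 0.07 without LN521+LN221 replicate 3 (edgeR adjusted p = 0.823) and 0.20 without LN521 replicate 2 (edgeR adjusted p = 0.0725).

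NOTCH2 (ENSG00000134250, chr1:119911553-120069626, minus strand) stood at 164, 160 and 157 CPM on LN521 and at 165, 161 and 173 CPM on LN521+LN221, and the log2 fold change was 0.06 ± 0.05 (SE; edgeR adjusted p = 0.695). The 95% interval ran from -0.06 to 0.17, and the value was 0.026 without LN521+LN221 replicate 3 (edgeR adjusted p = 0.921). NOTCH2 had non-whole counts in 6 libraries, so some of its reads had been divided with other genes. The NOTCH2NL genes are known partial copies of it, and its value is uncertain to that extent.

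On the TPM scale, which allows levels of different genes to be compared, NOTCH3 was the most abundant receptor in every library, at 13.9 to 17.6 TPM. NOTCH2 followed at 11.5 to 14.2 TPM and NOTCH1 at 9.19 to 10.8 TPM. NOTCH4, an endothelial receptor in its best-known role, was at most 0.80 TPM. As a share of the summed receptor TPM, NOTCH3 made up 42.7% ± 1.36 (SD, n = 3) on LN521 and 38.5% ± 1.44 (SD, n = 3) on LN521+LN221, and NOTCH1 made up 24.3% ± 1.02 and 26.9% ± 0.474 (SD, n = 3 each). The shares of both genes did not overlap between the coatings, while those of NOTCH2 did. The summed level of the 4 receptors was 40.3 ± 2.10 TPM on LN521 and 38.9 ± 1.96 TPM on LN521+LN221 (SD, n = 3 each), which differ by less than the spread between wells.

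**Figure D2:**
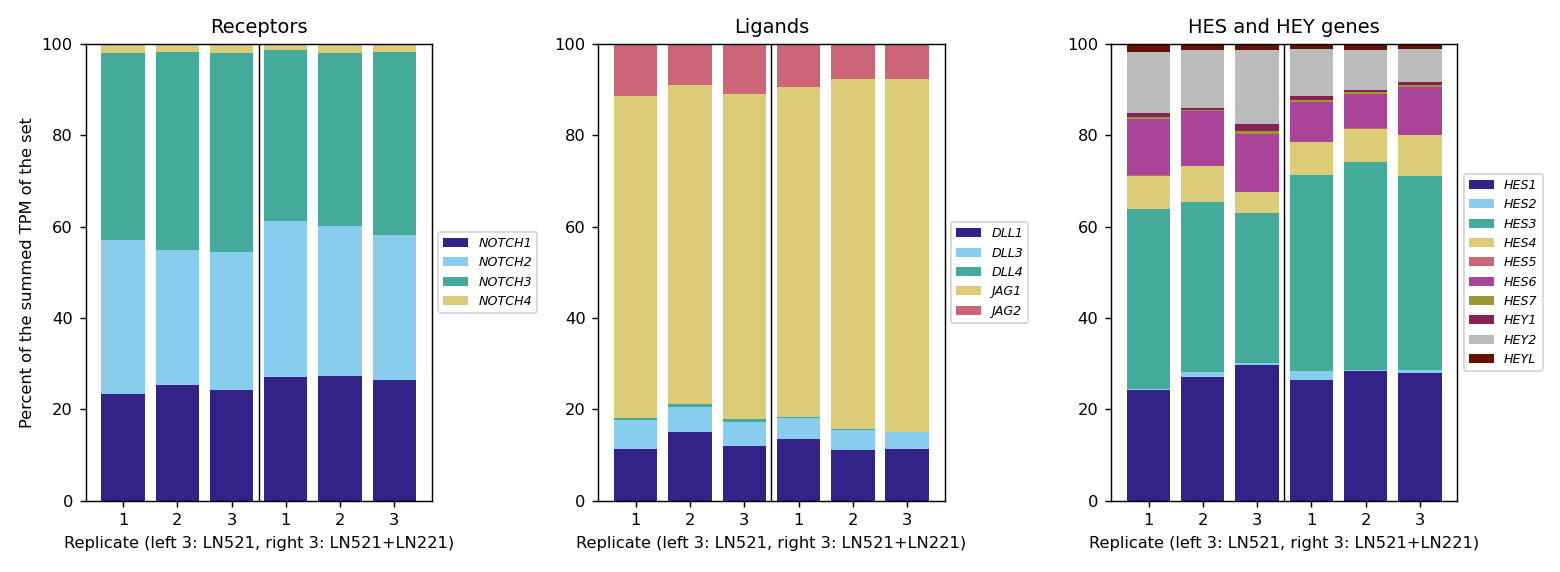
Share of each gene in the summed TPM of the 4 receptors, the 5 canonical ligands and the 10 HES and HEY genes, in percent, with 1 bar per library and LN521 to the left of the vertical line. NOTCH3 takes 37.5% to 43.6% of receptor TPM, JAG1 takes 69.8% to 77.2% of ligand TPM, and HES6 and HEY2 take smaller shares and HES3 takes a larger share in the 3 LN521+LN221 libraries than in the 3 LN521 libraries.

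Of the ligands, JAG1 (ENSG00000101384, chr20:10637684-10673999, minus strand) had the highest TPM of the 10 genes. It was 147, 163 and 153 CPM on LN521 and 153, 169 and 165 CPM on LN521+LN221, with overlapping wells, and its log2 fold change was 0.07 ± 0.06 (SE; edgeR adjusted p = 0.633). In TPM it was 28.3, 27.3 and 25.3 on LN521 and 29.5, 32.8 and 32.6 on LN521+LN221, and here the coatings did not overlap. On the log2 scale the value from counts was 0.04 without LN521 replicate 1 or LN521+LN221 replicate 2, 0.11 without LN521 replicate 2 and 0.12 without LN521+LN221 replicate 1, none past the threshold. The difference of log2(TPM + 1) was 0.22 (limma adjusted p = 0.591), against 0.07 from counts in the main test. Exons of JAG1 overlap those of an antisense transcript, AL050403.2, over 79 bases, and the sources used here do not say whether counting used the strand.

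DLL1 (ENSG00000198719, chr6:170282206-170306565, minus strand), the ligand of somite formation and neurogenesis, took either sign depending on the libraries used. It was 14.8, 22.0 and 16.7 CPM on LN521 and 18.4, 17.7 and 18.0 CPM on LN521+LN221, so all 3 LN521+LN221 wells lay inside the range of the LN521 wells. The coefficient of variation between wells was 20.8% on LN521 and 2.05% on LN521+LN221. Its log2 fold change was 0.01 ± 0.12 (SE; edgeR adjusted p = 0.980). It was 0.20 without LN521 replicate 2 and -0.10 without LN521 replicate 1, with neither past the threshold.

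DLL3 (ENSG00000090932, chr19:39498895-39508481, plus strand) is a divergent ligand that mostly stays inside the cell and dampens signalling within it. It was 5.84, 5.53 and 4.46 CPM on LN521 and 4.29, 4.31 and 3.76 CPM on LN521+LN221. The LN521 wells were all higher, the lowest of them only just. Its log2 fold change of -0.36 ± 0.15 (SE) was the lowest of the 10 (edgeR adjusted p = 0.274). It rests on 89 to 147 counts in each library. Its 95% interval, from -0.68 to -0.04, leaves the size poorly known. In TPM the wells overlapped, and the difference of log2(TPM + 1) was -0.19 (limma adjusted p = 0.778).

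In the summed TPM of the 5 canonical ligands, JAG1 held 70.5% ± 0.713 on LN521 and 75.3% ± 2.76 on LN521+LN221 (SD, n = 3 each). DLL3 held 5.64% ± 0.725 and 4.22% ± 0.450 (SD, n = 3 each), and neither share overlapped between the coatings. JAG2, a second Jagged ligand outside the 10 genes, was 12.3 ± 1.27 CPM and 12.1 ± 0.771 CPM (SD, n = 3 each; edgeR adjusted p = 0.922). DLL4, known from sprouting vessels, had 3 to 20 counts per library and was not tested.

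LFNG (ENSG00000106003, chr7:2512529-2529177, plus strand), lunatic fringe, adds a sugar to the receptors in the Golgi and so shifts their response from Jagged towards Delta-like ligands. It had the lowest p-value of the 10 genes. It was 22.0, 25.9 and 19.1 CPM on LN521 and 26.2, 29.2 and 26.2 CPM on LN521+LN221. All LN521+LN221 wells were higher, but LN521 replicate 2 came close to the lowest of them. The log2 fold change was 0.28 ± 0.10 (SE; 95% interval 0.07 to 0.49; edgeR adjusted p = 0.175).

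LFNG passed the threshold when LN521 replicate 2 was left out. It was then 0.41 on the log2 scale (edgeR adjusted p = 0.0105), and without LN521 replicate 3 it was 0.18 (edgeR adjusted p = 0.561). The GC correction gave 0.35 (edgeR adjusted p = 0.0135), and adjusted p-values spanned 0.0033 to 0.701 over all the settings run. The other fringe genes did not pass. RFNG was 22.7 ± 4.33 CPM on LN521 and 23.9 ± 1.16 CPM on LN521+LN221 (SD, n = 3 each; edgeR adjusted p = 0.824), and MFNG was 2.61 ± 0.115 and 2.94 ± 0.421 CPM (SD, n = 3 each; edgeR adjusted p = 0.749). RFNG shares 835 exonic bases with GPS1 on the other strand, so its counts may hold reads of both genes.

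LN521 replicate 2 was the highest of the LN521 wells for 7 of the 10 genes. The share of all genes tested for which it was the highest was not computed. Among the 7 were 4 of the 5 members whose longest transcript has a GC content of 60% or more (NOTCH1, NOTCH3, HES6 and LFNG). Relative to the mean of LN521 replicates 1 and 3, LFNG was 0.33 higher there on the log2 scale, NOTCH1 0.25 and NOTCH3 0.17, and DLL1, with a GC content of 58.3%, was 0.48 higher. Over all 2530 tested genes with a GC content of 60% or more, the median of the same difference was 0.20, and over all 17473 genes with a known GC content it was -0.001. Between the coatings, the median log2 fold change was -0.073 over the genes at or above this GC content and 0.009 over those below it. With the GC correction DLL3 was -0.29 (edgeR adjusted p = 0.336) and HES6 -0.25 (edgeR adjusted p = 0.307), while the corrected values of LFNG, NOTCH1 and NOTCH3 are those above.

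The target genes were examined last. HES1 is the textbook target of the activated receptor, and its promoter is shown because the RBPJ core TGGGAA lies in it close to the start. HEY2, a target outside the 10 genes, is shown beside it because its expression differed between the coatings. Both sequences are from RefSeq (GRCh38.p14, plus strand, 5′ to 3′) and stop before the first annotated exon base. Capitals mark the core on either strand (TTCCCA is its reverse complement).
HES1 (chr3:194135898-194136144): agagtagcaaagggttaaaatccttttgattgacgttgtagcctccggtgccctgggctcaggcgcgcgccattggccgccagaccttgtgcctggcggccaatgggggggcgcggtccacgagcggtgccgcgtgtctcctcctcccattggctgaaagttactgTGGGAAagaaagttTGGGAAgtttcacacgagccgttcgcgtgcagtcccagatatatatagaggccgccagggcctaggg
HEY2 (chr6:125749382-125749579): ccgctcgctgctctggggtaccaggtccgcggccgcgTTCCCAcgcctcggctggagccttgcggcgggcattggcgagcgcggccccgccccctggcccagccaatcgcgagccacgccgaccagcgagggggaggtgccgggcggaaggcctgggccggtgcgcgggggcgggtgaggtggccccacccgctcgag
The HES1 window holds the core 2 times, starting 84 and 70 bases before the RefSeq start, and the HEY2 window holds it 1 time, 213 bases before it. Among 35116 promoters of the same table, 20.8% have the core on either strand within 250 bases before the start, and 2.90% have it at least 2 times. Promoters of 7 members were in the table, all but DLL1, DLL3 and HEY1. Of the other 6, only LFNG had the core, in the window of 1 of its 2 listed starts. Outside the 10 genes, the NRARP window had none, and RBPJ had 2 in 1 of its 5 windows. A match is a description of these letters and does not show binding.

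HES1 (ENSG00000114315, chr3:194136145-194138732, plus strand) was 18.4, 20.6 and 19.2 CPM on LN521 and 21.1, 22.3 and 22.2 CPM on LN521+LN221. The coatings did not overlap in CPM or in TPM. The log2 fold change was 0.17 ± 0.08 (SE; edgeR adjusted p = 0.346), and its 95% interval, from -0.0009 to 0.35, reached 0. In the 17 other settings run it lay between 0.14 and 0.22 and never passed the threshold (adjusted p between 0.173 and 0.670).

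HES6 (ENSG00000144485, chr2:238238267-238240662, minus strand) is an atypical family member that antagonizes HES1 and favours neuronal differentiation. It was 7.62, 8.16 and 7.10 CPM on LN521 and 6.31, 5.11 and 6.88 CPM on LN521+LN221. Every LN521 well was higher than every LN521+LN221 well, whereas HES1 was higher on LN521+LN221. Its log2 fold change was -0.32 ± 0.13 (SE; 95% interval -0.60 to -0.04; edgeR adjusted p = 0.267). The TPM values of the 2 coatings overlapped. The range over the settings run was -0.42 to -0.21, the weakest without LN521+LN221 replicate 2 (edgeR adjusted p = 0.704).

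HEY1 (ENSG00000164683), a repressor best known from vessel and heart development, was barely expressed, with 9 to 29 counts per library. It was 0.871, 0.414 and 1.16 CPM on LN521 and 0.819, 0.404 and 0.760 CPM on LN521+LN221. The 95% interval of its log2 fold change ran from -1.14 to 0.55 (edgeR adjusted p = 0.802), and the wells varied with a coefficient of variation of 46.3% on LN521 and 34.0% on LN521+LN221. Its sign turned to 0.06 without LN521 replicate 3.

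**Figure D3:**
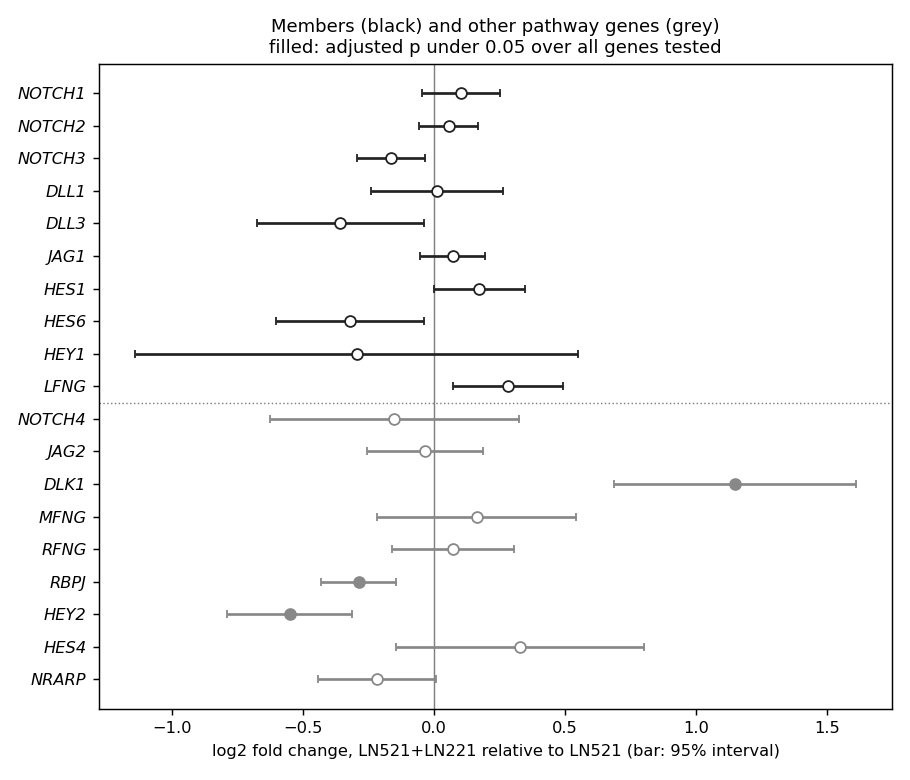
Log2 fold changes (LN521+LN221 relative to LN521) of the 10 genes in black and of 9 other pathway genes in grey, with 95% intervals from the edgeR fit. Filled points passed an adjusted p-value of 0.05 over all genes tested. None of the 10 is filled, and DLK1, RBPJ and HEY2 are.

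The rest of the pathway was read from a list of 51 genes in 6 roles, of which 46 were tested. Of these, 3 (6.52%) passed the threshold, 1 higher and 2 lower on LN521+LN221, against 1.4% and 1.14% of all genes in those directions. With the GC correction the split was 5 higher and 3 lower, and with the correction and the replicate block 5 and 4, while without LN521 replicate 1 it was 3 and 2. In those settings 5.24%, 5.55% and 6.54% of all genes tested passed. In the main test the median log2 fold change of the 46 genes was 0.0088. None of the 4 tested genes of receptor glycosylation outside LFNG, of the 9 genes of receptor cleavage, which include ADAM10 and the gamma-secretase subunits, or of the 11 genes of endocytosis and ubiquitination passed in the main edgeR test. At an unadjusted edgeR p-value under 0.05 these roles gave 0, 3 and 1 genes, against 14.5% of all genes tested. The nuclear complex gave 7 of 12, other receptors and ligands 2 of 4, and the other HES, HEY and target genes 2 of 6. All 6 roles together gave 15 of the 46, 7 higher and 8 lower on LN521+LN221. NEURL1B, a ubiquitin ligase of the endocytosis list named after its values were seen, passed with the GC correction, alone and with the replicate block.

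HEY2 (ENSG00000135547), a repressor of the same family as HEY1 with known roles in heart ventricle and vessels, fell. It was 18.6, 17.9 and 19.1 CPM on LN521 and 15.2, 12.3 and 10.5 CPM on LN521+LN221, without overlap between the coatings. Its log2 fold change was -0.55 ± 0.11 (SE; edgeR adjusted p = 0.0108). The call was lost without LN521 replicate 3 (-0.53, edgeR adjusted p = 0.0804), without LN521+LN221 replicate 2 (-0.53, edgeR adjusted p = 0.0898) and without LN521+LN221 replicate 3 (-0.43, edgeR adjusted p = 0.0983), and with limma on log2(TPM + 1) (-0.43, adjusted p = 0.444).

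RBPJ (ENSG00000168214), the DNA-binding partner of all Notch receptors, also fell. It was 319, 268 and 320 CPM on LN521 and 262, 250 and 232 CPM on LN521+LN221. The log2 fold change was -0.29 ± 0.07 (SE; edgeR adjusted p = 0.0301). LN521 replicate 2 lay nearly level with the highest LN521+LN221 well, and in TPM the coatings overlapped. The call held without LN521 replicate 2 (-0.36, edgeR adjusted p = 2.37e-04) and was lost when any of the other 5 libraries was left out, where the log2 fold change lay between -0.33 and -0.24, with edgeR adjusted p-values of 0.0672 and 0.206 without LN521 replicates 1 and 3 and of 0.0545, 0.157 and 0.202 without LN521+LN221 replicates 1, 2 and 3. It was also lost with limma on log2(TPM + 1) (-0.24, adjusted p = 0.793).

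DLK1 (ENSG00000185559), a Delta-like protein that lacks the domain by which canonical ligands activate the receptor, rose from low levels. It was 1.39, 2.74 and 1.93 CPM on LN521 and 4.53, 3.72 and 5.32 CPM on LN521+LN221. The log2 fold change was 1.15 ± 0.22 (SE; edgeR adjusted p = 0.00663). The wells did not overlap, with 32 to 73 counts on LN521 and 83 to 126 on LN521+LN221. The call was lost without LN521 replicate 3 (1.11, edgeR adjusted p = 0.0544) or LN521+LN221 replicate 3 (1.01, edgeR adjusted p = 0.0632), and with limma on log2(TPM + 1) (0.75, adjusted p = 0.126) or log2(TPM + 0.1) (1.14, adjusted p = 0.184).

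Other genes of the target list did not pass in the main edgeR test. NRARP, a feedback inhibitor induced by the receptor, was 10.6 ± 0.710 CPM on LN521 and 9.08 ± 0.636 CPM on LN521+LN221 (SD, n = 3 each), and the log2 fold change was -0.22 ± 0.11 (SE; edgeR adjusted p = 0.368). HES4 was 2.75 ± 0.906 and 3.44 ± 0.532 CPM (SD, n = 3 each; edgeR adjusted p = 0.553). HES5, the target typical of neural progenitors, had 0 to 3 counts per library and was not tested. Genes of this list did not share a direction. The list takes in the HES and HEY families by name, so not every gene on it need be a direct target. Of the 9 tested, members included, 4 (HES1, HES2, HES3 and HES4) had log2 fold changes above 0. The other 5 (HES6, HEY1, HEY2, HEYL and NRARP) were below 0. Only HEY2 passed in the main edgeR test, and HES3 passed with the GC correction, with the replicate block, with both and without LN521 replicate 1.

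Among the 10 genes the order of TPM levels was JAG1, NOTCH3, NOTCH2, HES1, LFNG, NOTCH1, DLL1, HES6, DLL3 and HEY1, with medians over the 6 libraries from 28.9 to 0.305 TPM. JAG1 was above NOTCH3, NOTCH1 above DLL1, HES6 above DLL3 and DLL3 above HEY1 without overlap between libraries. The other neighbours in the order overlapped: NOTCH2 exceeded HES1 in 5 of 6 libraries, HES1 exceeded LFNG in 5, LFNG exceeded NOTCH1 in 5 and DLL1 exceeded HES6 in 4, so their order is not separated from the spread. NOTCH3 was above NOTCH2 in all 6 libraries although their ranges overlapped.

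The genes whose log2 CPM followed that of LFNG most closely over the 6 libraries, among 10033 tested genes with a symbol and a mean of at least 10 CPM, were PDE9A (Pearson r = 0.986), ZNF114 (0.986) and CDKN1C (0.983). With 6 libraries and 28 genes at 0.95 or more, these values describe the libraries only.

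**Figure D4:**
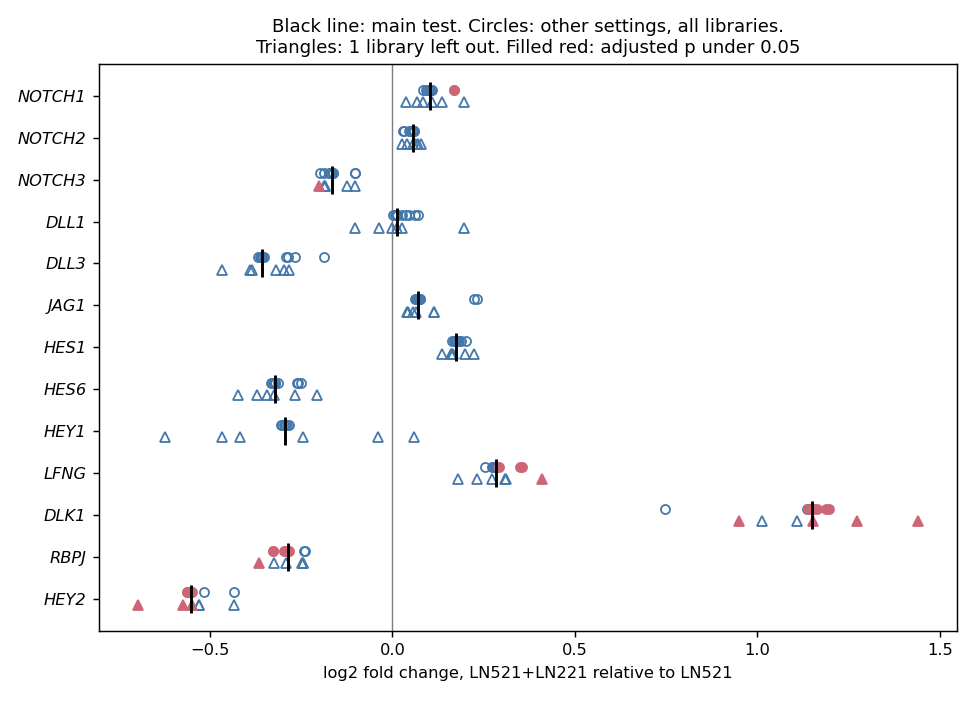
Log2 fold changes of the 10 genes and of DLK1, RBPJ and HEY2 in the main test (black line), in other settings with all libraries (circles) and with 1 library left out (triangles), with filled red for an adjusted p-value under 0.05. LFNG passed in 4 of 17 settings, NOTCH1 in 2 and NOTCH3 in 1, and DLL1 and HEY1 lay on both sides of 0.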

How the data were processed

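RNA of 6 wells was sequenced from stranded total RNA libraries in pairs of 150 bp, per the labels' protocols. The submitters' processing notes name cutadapt, STAR 2.5.2b, RSEM 1.2.31 and the build hg38, and the annotation and strand setting are not given in the sources used here. The authors deposited estimated counts per gene (6.08% to 6.67% of values per library are not whole) and TPM values, which sum to the same total in each library, so abundant 7SL RNA (30.1% to 37.3% of TPM) lowers the TPM of other genes. Symbols were given for 68.0% of the 60499 gene IDs. Gene positions, GC content (longest transcript) and exon overlaps are from GENCODE 29 (GRCh38), and promoters from RefSeq.

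Estimated counts were rounded, filtered with filterByExpr (minimum count 10), scaled by TMM and tested with edgeR 4.0.16 (R 4.3.3; quasi-likelihood, robust) on the 6 libraries with coating as the only term. Adjustment followed Benjamini and Hochberg over 17608 genes with a threshold of 0.05. The SE is the absolute log2 fold change over the square root of F, and the 95% interval uses the t quantile of the fit. CPM are rounded counts over TMM-scaled library sizes. Count depth limits precision, and no 2 libraries agreed within sampling noise (lowest chi-square per degree of freedom 2.85). The sample table used here has no column for a sequencing batch, run or lane, so a batch difference between libraries was not tested. Scripts were tested on simulated data, where fold changes came out unbiased but the share of false calls was above the nominal rate, so calls near the threshold are less certain than their adjusted p-values read.

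Alternatives were RLE factors, total counts alone, no filter, 1 CPM in 3 libraries, removal of 1551 mitochondrial, ribosomal, 7SK and 7SL RNA genes, DESeq2 1.42.0, limma 3.58.1 on log2(TPM + 1) and log2(TPM + 0.1), the replicate block, a lowess GC correction (span 0.3) with and without the block, and leaving out each library. The members, lists and tests were chosen with earlier results of these data known. Named genes were the 10 members, 9 fixed pathway genes (NOTCH4, DLL4, JAG2, MFNG, RFNG, RBPJ, HES4, HES5, NRARP), pathway genes past the threshold, and the 3 genes most like the member of lowest p-value. Others were chosen after their values were seen.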

Additional observations from a re-analysis of the deposited data

How the results depend on the processing

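The median log2 fold change over the tested genes was largest in size, 0.039, with limma on log2(TPM + 0.1). The count of members past the threshold was 0 in edgeR with RLE factors, total counts alone, either filter or abundant RNA removed, in DESeq2 and in both limma fits. It was 2 with the GC correction and 2 with the correction and the replicate block (LFNG and NOTCH1), and 0 to 1 over the fits without 1 library. Over all genes the count, 446, became 718 without a filter, 33 and 16 with limma on log2(TPM + 1) and log2(TPM + 0.1), 916 with the GC correction, 969 with the correction and the block, and 194 to 1179 without 1 library. The 3 other pathway genes became 5 without a filter, 5 with DESeq2, 0 in both limma fits, 8 with the GC correction, 9 with the correction and the block, and 0 to 6 without 1 library. It was 0 without LN521 replicate 3 and without LN521+LN221 replicate 3.

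A replicate block in the model gave 646 genes past the threshold, 1 member among them (LFNG, 0.29, edgeR adjusted p = 0.0497) and 6 other pathway genes. The sample table does not say whether same-numbered wells were paired. Their deviations from the group means correlated between -0.022 and 0.047, so they showed no shared deviation. This does not settle whether they were handled as pairs.

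Signs changed for JAG2 with the GC correction (0.032, or 0.031 with the block), and without 1 library for JAG2 (-0.083 to 0.058), DLL1 (-0.10 to 0.20), HEY1 (-0.62 to 0.059) and RFNG (-0.020 to 0.25). The cause was not tested. Of the members' results, 101 kept direction and side of the threshold in the settings with all libraries and 5 newly passed it. Without 1 library 54 kept both, 2 newly passed and 4 changed sign.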

Other observations

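Several genes of the nuclear complex passed the threshold in some settings and not in the main test, and they are named here after their values were seen. MAML2, a Mastermind co-activator, was 8.71, 7.14 and 8.99 CPM on LN521 and 6.02, 6.68 and 5.70 CPM on LN521+LN221 (log2 fold change -0.43 ± 0.13, SE; edgeR adjusted p = 0.0984). The Groucho co-repressors TLE1 and TLE3, through which HES proteins silence genes, had opposite signs, and TLE1 had non-whole counts in 6 libraries. TLE1 was 78.9 ± 0.882 CPM on LN521 and 67.6 ± 2.89 CPM on LN521+LN221 (SD, n = 3 each; log2 fold change -0.22, edgeR adjusted p = 0.0579), and TLE3 was 109.7 ± 6.67 and 127.3 ± 3.57 CPM (SD, n = 3 each; 0.22, edgeR adjusted p = 0.0633). MAML2 passed without a filter, without LN521 replicate 2 and with the GC correction, alone and with the replicate block. TLE1 and TLE3 both passed with DESeq2, with the block, with the block and the GC correction, and without LN521 replicate 1 or 2, TLE1 also without a filter and TLE3 also with the GC correction alone. SNW1, a further co-regulator, passed with the GC correction, alone and with the block. None of these 4 passed in either limma fit, or without LN521 replicate 3 or any LN521+LN221 library. Of the 12 genes of this role, RBPJ alone passed in the main edgeR test. CPM did not overlap between the coatings for 9 of the 12, against 19.9% of all genes tested. The 9 did not share a direction: RBPJ, MAML1, MAML2, TLE1 and TLE4 were lower on LN521+LN221, and SNW1, SPEN, CIR1 and TLE3 were higher. This role had the highest such share of the 6 roles (75%), and receptor glycosylation had the lowest (0%). Over all 46 tested genes of the list the share was 43.5%.

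HES3, also named after its values were seen, had the highest TPM of the 10 HES and HEY genes in these cells, at 11.9 to 21.3 TPM, and took 36.4% ± 3.46 of their summed TPM on LN521 and 43.7% ± 1.66 on LN521+LN221 (SD, n = 3 each), without overlap. It was 11.5, 10.7 and 7.99 CPM on LN521 and 13.0, 13.4 and 12.7 CPM on LN521+LN221 (log2 fold change 0.37 ± 0.12, SE; edgeR adjusted p = 0.133). It passed the threshold with the replicate block, with the GC correction, with both, and without LN521 replicate 1.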
